A study of Mus musculus with 16 samples.

Results

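The 35 genes described here encode nucleolar ribosome assembly factors and 2 subunits of RNA polymerase I, and were taken by gene symbol out of 24946 genes in expression tables of mouse neural stem cell (NSC) cultures. All 35 symbols were found in both tables, and all 35 passed the filter on low values. The cells were grown from the V-SVZ, the germinal zone that lines the lateral ventricles of the brain. Tsc2 mut/mut cultures (4) and Tsc2 wt/wt cultures (4) were grown in medium with EGF and FGF, passaged once and given cycloheximide before lysis. Total RNA and polyribosomal RNA, the RNA of the heaviest sucrose gradient fraction, were sequenced for each culture, which gave 16 libraries in 4 groups.

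The deposited values are reads normalized by the authors, summing to between 65.6 M and 73.7 M (M, mega) per library in total RNA and between 87.4 M and 100.5 M in polyribosomal RNA. The mutant pups carried the conditional Tsc2tm1.1Mjg allele with a tamoxifen-inducible Nestin-CRE-ERT2 transgene and a tdTomato reporter, so recombination was limited to cells in which the Nestin promoter was active around the time of injection. Control and mutant pups were both injected with tamoxifen and their brains were taken a week later. Whether every wild-type pup carried Cre is not clear from the descriptions used here. Neither age, sex nor litter is labelled for a culture. Each culture has its own animal number.

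Ribosome assembly starts in the nucleolus, where RNA polymerase I transcribes the common precursor of most rRNAs. Box C/D and box H/ACA small nucleolar ribonucleoproteins (snoRNPs) methylate and pseudouridylate that precursor, the small subunit processome folds and cleaves it, and separate sets of factors mature the 40S and 60S particles before and after export. The tuberin protein made by Tsc2 is part of the complex that restrains mTORC1, a kinase known to promote ribosome production, and MYC is a known transcriptional activator of many assembly genes.

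The hexamer CACGTG is the E-box bound by MYC with its partner MAX, and by other bHLH-ZIP factors such as USF and the MiT/TFE family. It was searched in RefSeq promoter windows of the GRCm38 build that run across 250 bases before and 50 bases after the transcription start. The letters are palindromic, so one search covers both strands. Promoters were present for 31 of the 35 genes, Rrp12, Fbl, Bop1 and Rrs1 having no window in the table. The hexamer stood in 8 of the 31 (25.8%), against 11.4% of the 11654 tested genes with a window and 8.09% of all 27025 symbols in the table. Each site is given as 30 bases of the gene's own strand with the hexamer in capitals, because its place relative to the start differs between the genes.
Ltv1: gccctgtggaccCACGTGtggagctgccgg
Nle1: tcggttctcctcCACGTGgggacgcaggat
Nop2: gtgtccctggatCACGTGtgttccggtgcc
Pes1: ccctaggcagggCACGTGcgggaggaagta
Tsr1: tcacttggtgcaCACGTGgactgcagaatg
Utp20: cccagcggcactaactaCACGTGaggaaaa
Utp4: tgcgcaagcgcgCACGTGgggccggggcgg
Wdr43: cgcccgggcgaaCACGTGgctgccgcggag

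These windows lie at chr10:13193092-13193121 (minus strand) for Ltv1, chr11:82908355-82908384 (minus strand) for Nle1, chr6:125131811-125131840 (plus strand) for Nop2, chr11:3963965-3963994 (plus strand) for Pes1, chr11:74898092-74898121 (plus strand) for Tsr1, chr10:88826765-88826794 (minus strand) for Utp20, chr8:106893643-106893672 (plus strand) for Utp4 and chr17:71616220-71616249 (plus strand) for Wdr43. In 7 of the 8 genes the hexamer lay in the 50 bases after the RefSeq start, where the window ends. Its first base was between position 3 (Pes1) and position 38 (Utp20), counted from 1 at that start. Only Nop2 held it upstream, at base -60. Gene bounds in the GENCODE M21 annotation differ for some of them. Wdr43 begins there at chr17:71615895, and its hexamer at chr17:71616232. Counted by side, 22.6% of the 31 genes had the letters after the start, against 1.8% of tested genes, and 3.23% had them before it, against 9.62% of tested genes. Among 123 other ribosome assembly genes with a window 17.1% held the hexamer, 8.13% after the start and 10.6% before it, some on both sides. These are counts of letters with no test, and the letters say nothing of binding in these cultures. The 8 genes with the hexamer had a median log2 change of -0.72 in mutant total RNA, and the 23 without it -0.80.

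Each gene was compared between Tsc2 mut/mut and Tsc2 wt/wt cultures in total RNA, on the log2 scale of the deposited normalized reads with 1 added, by limma with Benjamini-Hochberg adjustment over all genes tested and a threshold of 0.05. Of the 35 genes, 34 were lower in mutant total RNA and 0 were higher, all 35 changes being below 0. Among all 14967 genes tested, 20.7% were lower and 19.7% higher. The median log2 change was -0.79 over the 35 genes and 0.01 over all genes tested. In 34 genes all 4 mutant libraries lay below all 4 wild-type libraries, which held for 20.3% of all genes in that direction. Because these are bulk libraries, fewer cells of a type and less RNA per cell cannot be told apart.

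**Figure D1:**
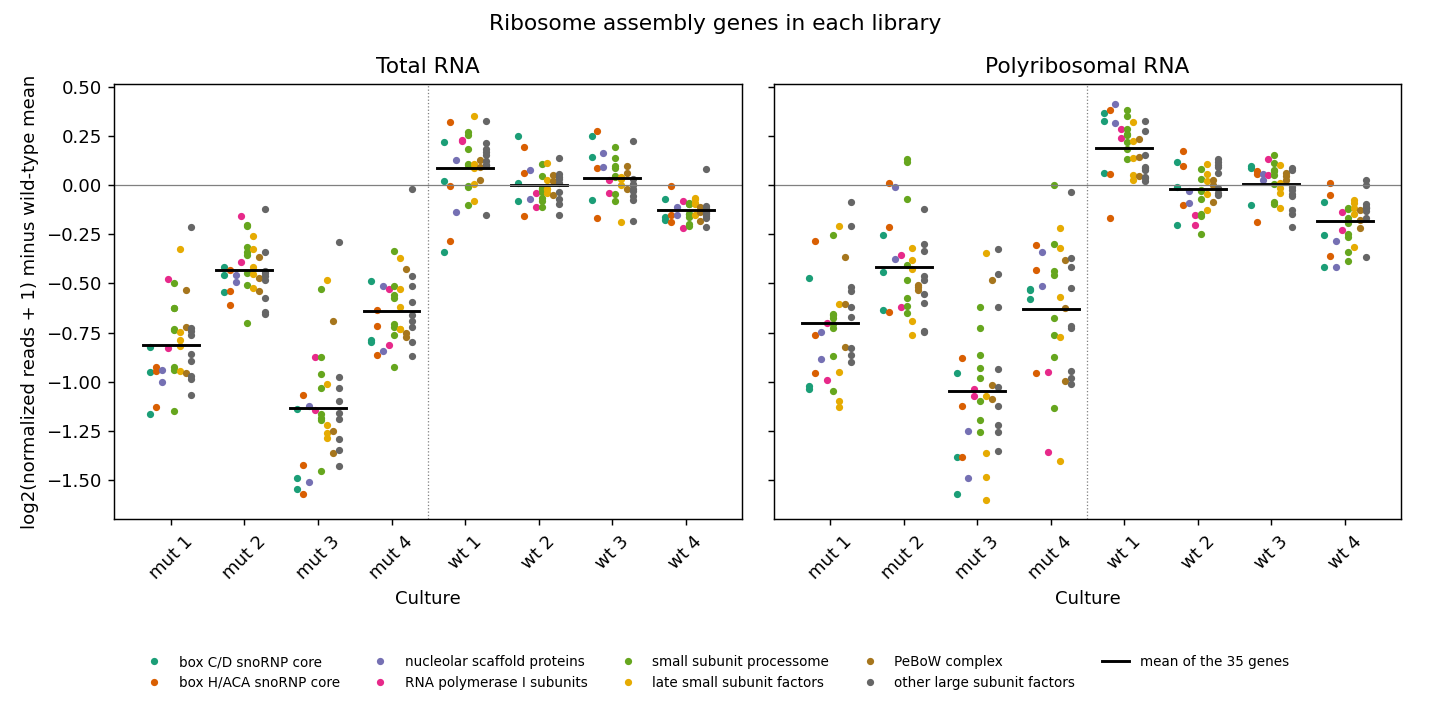
Level of each of the 35 genes (points, coloured by role) in each of the 8 total RNA and 8 polyribosomal RNA libraries, as log2(normalized reads + 1) minus the mean of the 4 wild-type libraries of that gene; black bars are means over the 35 genes. The mean in total RNA was lowest in mutant culture 3 (-1.13) and highest among mutants in culture 2 (-0.43), and lay between -0.13 and 0.09 in the wild-type cultures.

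The mutant cultures kept nearly the same order for every gene in total RNA. Relative to the wild-type mean, the mean level of the 35 genes in total RNA was -0.81, -0.43, -1.13 and -0.64 on the log2 scale in mutant cultures 1 to 4, and 0.09, 0.00, 0.04 and -0.13 in wild-type cultures 1 to 4. Mutant culture 3 was the lowest mutant for 35 of 35 genes and mutant culture 2 the highest for 33. The spread was accordingly wider in the mutants, with a median coefficient of variation of 21.9% among the 4 mutant cultures and 9.28% among the 4 wild-type cultures, against 13% and 11.4% over all genes tested. In polyribosomal RNA it was 19.1% and 11.4%, against 18.6% and 13.3% over all genes tested. The order was not particular to the 35 genes. Of all genes tested, 35.1%, 29%, 39.1% and 32.2% lay below every wild-type total RNA library in mutant cultures 1 to 4.

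The 3 genes of the box C/D snoRNP core among the 35 were all lower in mutant total RNA. The particle carries the rRNA 2'-O-methyltransferase. Fbl, the methyltransferase fibrillarin, had 11792, 15217, 9447 and 14882 normalized reads in mutant cultures 1 to 4, against 24309.9, 19746, 19775 and 19899 in wild-type cultures 1 to 4. The groups did not overlap, and Fbl changed by -0.73 ± 0.15 (SE, adjusted p = 0.00605, limma). Wild-type culture 1 stood above the other wild-type cultures for this gene, which were close to one another. Fbl lies at chr7:28169710-28179269 of GRCm38 (plus strand). Its partners Nop56 and Nop58, the scaffold proteins of the same particle, changed by -0.91 ± 0.19 and -1.01 ± 0.21 (SE).

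The 3 genes among the 35 that encode core proteins of the box H/ACA snoRNP, the pseudouridylation particle, were all lower. Nhp2, its RNA-binding subunit, had 10347, 13084, 7439 and 12129 normalized reads in mutant cultures and 19900.2, 20826, 21234 and 17965 in wild-type cultures. Every mutant library was below every wild-type one, at -0.92 ± 0.16 (SE, adjusted p = 0.0035, limma). Dkc1, the pseudouridine synthase dyskerin, had 2260.1, 3404, 1658 and 2714 normalized reads in mutant cultures, against 4058, 5650.3, 5979 and 4339 in wild-type cultures. This was the second strongest change of the 35, at -1.03 ± 0.21 (SE, adjusted p = 0.00571, limma), although wild-type cultures 1 and 4 sat clearly below cultures 2 and 3. Gar1, which encodes another core protein of the particle, changed by -0.76 ± 0.15 (SE). 

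Both scaffold proteins of the nucleolus were lower. Ncl, which encodes nucleolin, an abundant RNA-binding protein of the nucleolus, had 29161, 40768, 25706 and 39261 normalized reads in mutant cultures and 51023, 59170, 62746 and 51942 in wild-type cultures. The highest mutant library, culture 2, remained below the lowest wild-type library, and the change was -0.76 ± 0.15 (SE, adjusted p = 0.00524, limma). Nolc1, the snoRNP chaperone Nopp140, changed by -0.96 ± 0.18 (SE).

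Both RNA polymerase I subunits were lower too. Polr1a, the largest subunit, had 5285, 6587, 4008 and 5102 normalized reads in mutant cultures, against 8619.6, 6797, 7150.5 and 6948 in wild-type cultures. Mutant culture 2 came close to the lowest wild-type library, and Polr1a showed one of the weaker changes, -0.51 ± 0.14 (SE, adjusted p = 0.0186, limma). Polr1b, the second largest subunit, had 2005, 2718, 1614 and 2027 normalized reads in mutant cultures and 4172, 3466, 3637 and 3067 in wild-type cultures. Its change was -0.79 ± 0.15 (SE, adjusted p = 0.00479, limma).

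All 8 genes of the small subunit processome, the large particle that forms on the 5′ end of the rRNA precursor, were lower, with log2 changes between -1.06 and -0.39. Rrp9, the U3-specific snoRNP protein, showed the strongest change of the 35 genes. Its gene lies at chr9:106475963-106485424 of GRCm38 (plus strand). It had 3376, 4599.5, 2731 and 3933 normalized reads in mutant cultures, against 8925, 7407, 7091 and 6685 in wild-type cultures. The highest mutant value was well below the lowest wild-type one, and the change was -1.06 ± 0.15 (SE, adjusted p = 0.00267, limma). Nop14, a component needed for 18S rRNA maturation in yeast, was at the other end with -0.39 ± 0.09 (SE). Utp4, Utp20, Heatr1 and Pwp2, which are processome scaffold proteins, lay between -0.75 and -0.59, Wdr43 (the homolog of yeast Utp5) at -0.82, and Rcl1, whose yeast counterpart acts in pre-rRNA processing, at -0.84.

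The 5 late small subunit factors, which act on the pre-40S particle, were all lower. Bysl, the mammalian counterpart of yeast Enp1, had 6228, 7843, 4482 and 7246 normalized reads in mutant cultures and 11254, 10314, 10454 and 9836 in wild-type cultures, a change of -0.73 ± 0.15 (SE, adjusted p = 0.00645, limma). Nob1, the endonuclease that makes the 3′ end of 18S rRNA, had 4391, 4389.5, 3939 and 4259 normalized reads in mutant cultures, against 5519, 5606, 5650.5 and 5232 in wild-type cultures. Its change was small, -0.37 ± 0.07 (SE, adjusted p = 0.00466, limma), yet the replicates were tight and the groups did not overlap. The GTPase-like protein gene Tsr1, the pre-40S factor gene Ltv1 and Rrp12 changed by -0.87, -0.82 and -0.67.

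Among the large subunit factors, the PeBoW complex, which is needed to process the rRNA of the large subunit, was lower in all 3 subunits. Pes1, which encodes pescadillo, had 9829, 11031, 8789.9 and 10576 normalized reads in mutant cultures and 15149, 13739, 14856 and 13169 in wild-type cultures, a change of -0.50 ± 0.09 (SE, adjusted p = 0.00412, limma). Its binding partner Bop1 had 7410.1, 8807, 5133 and 7137 normalized reads in mutant cultures, against 13364, 12389, 12064 and 11134 in wild-type cultures, a larger change of -0.80 ± 0.15 (SE, adjusted p = 0.00408, limma). Wdr12 changed by -0.90 ± 0.16 (SE).

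Of the other 9 large subunit factors, 8 were lower. Rrp1, the nucleolar protein NNP-1, was the exception. It had 21884, 23307, 20776 and 24981 normalized reads in mutant cultures, against 28512, 24149, 22324 and 26848 in wild-type cultures. Mutant cultures 2 and 4 lay inside the wild-type range, and the change of -0.16 ± 0.10 (SE, adjusted p = 0.211, limma) did not pass the threshold. The 8 that passed ran between -0.99 for Mrto4, a factor that places the ribosomal stalk, and -0.68 for Wdr74. They included Gnl3 (nucleostemin, a GTPase named for its expression in stem cells) at -0.80, the rRNA methyltransferase gene Nop2 at -0.71, and Ppan, Nop16, Rrs1 and Nle1 at -0.94, -0.83, -0.79 and -0.73.

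Reads from overlapping genes on the opposite strand could not be told apart, because the library kit does not mark strand. In GENCODE M21, 15 of the 35 genes shared exonic bases with a gene on the other strand. Among them were Tsr1 (with Srr), Bysl (with Ccnd3) and Heatr1 (with Lgals8).

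In polyribosomal RNA the same 35 genes were compared with the same model. All 35 changes were again below 0, and 27 genes were lower and 0 higher in mutant cultures. Over all 14412 genes tested, 11.9% were lower and 11.7% higher. The groups did not overlap in 25 of the 35 genes, against 14.6% of all genes in that direction. The median log2 change was -0.72 for the 35 genes and 0.01 for all genes. Total and polyribosomal RNA came from the same cultures, so the second set of libraries is not independent of the first.

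**Figure D2:**
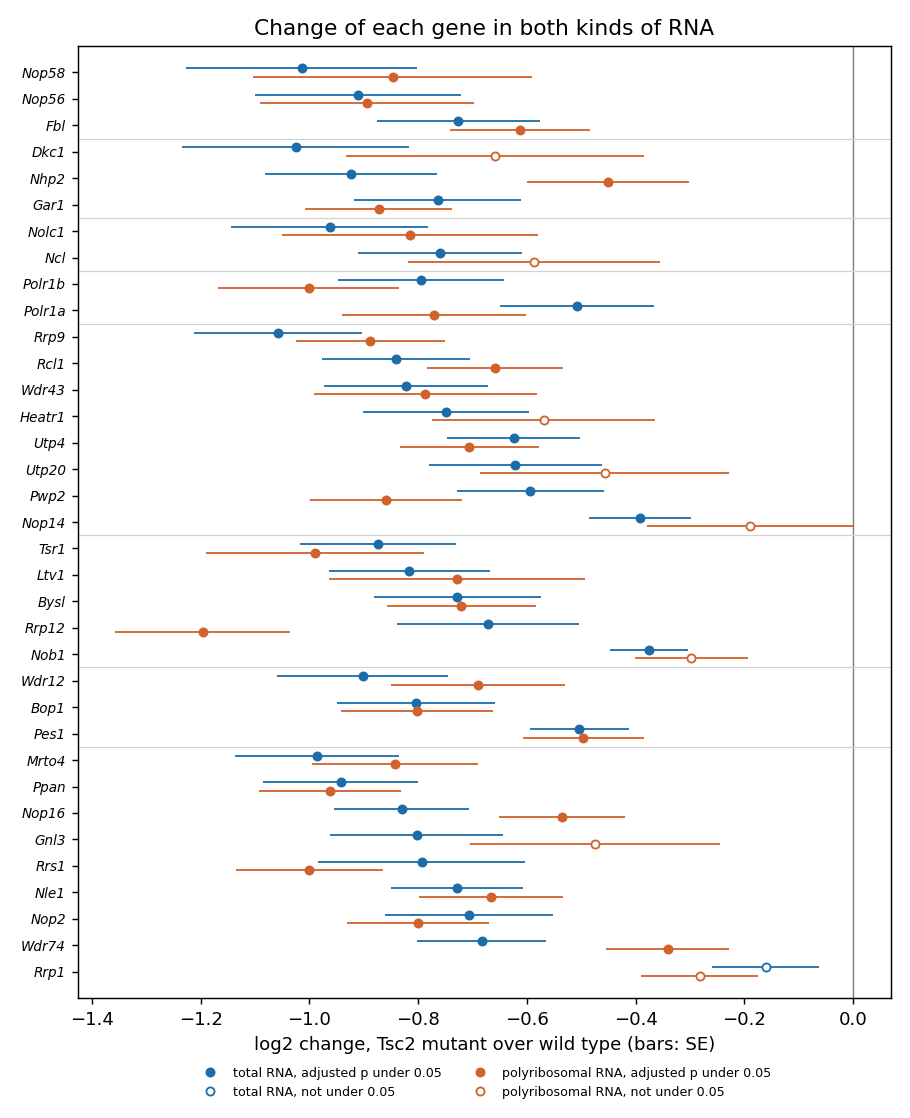
Log2 change of each gene, Tsc2 mutant over wild type, in total RNA (blue) and in polyribosomal RNA (orange), with standard errors as bars; genes are grouped by role between the grey lines, in the order box C/D, box H/ACA, scaffold, RNA polymerase I, small subunit processome, late small subunit, PeBoW and other large subunit factors. Filled points passed the adjusted threshold (34 in total RNA, 27 in polyribosomal RNA), and all 70 points lie left of 0.

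The strongest polyribosomal change belonged to Rrp12, a HEAT-repeat protein whose yeast counterpart takes part in subunit export. Its polyribosomal level was 3624, 4675, 2828 and 2992 normalized reads in mutant cultures, against 8722, 7257, 8519 and 7332 in wild-type cultures. The change was -1.20 ± 0.16 (SE, adjusted p = 0.00168, limma), and the highest mutant library was far below the lowest wild-type one. Polr1b followed, with 3185, 4128, 3088 and 2477 normalized reads in mutant cultures and 7503, 5716, 6956 and 5422 in wild-type cultures. Its change was -1.002 ± 0.17 (SE, adjusted p = 0.00361, limma). Rrs1, a factor that brings the 5S particle into pre-60S ribosomes, had almost the same change, and Tsr1 (-0.99 ± 0.20) and Ppan (-0.96 ± 0.13) were next.

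The 8 genes that did not pass in polyribosomal RNA were Dkc1, Ncl, Heatr1, Utp20, Nop14, Nob1, Gnl3 and Rrp1, with adjusted p between 0.0557 and 0.491 by limma. Nop14 showed the smallest change of the 35. It had 1896, 2452, 1474 and 2261 normalized reads in mutant cultures, against 2894, 2225, 2347 and 1730.2 in wild-type cultures. Mutant cultures 1, 2 and 4 lay inside the wild-type range, and the change was -0.19 ± 0.19 (SE, adjusted p = 0.491, limma). Rrp1 had 54263, 46778, 46062 and 43189 normalized reads in mutant cultures and 59049, 60306, 52803 and 58670 in wild-type cultures, with only mutant culture 1 inside the wild-type range, at -0.28 ± 0.11 (SE, adjusted p = 0.0754, limma).

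Ncl and Dkc1 missed the threshold with changes of ordinary size. Ncl had 20824, 34844, 14719 and 27673 normalized reads in mutant cultures, against 43703, 32883, 36391 and 28720.5 in wild-type cultures. Mutant culture 2 lay above 2 of the 4 wild-type libraries, and the change was -0.59 ± 0.23 (SE, adjusted p = 0.085, limma). Dkc1 had 1412, 2764, 1051 and 2222 normalized reads in mutant cultures and 3579, 2564, 2890.5 and 2136 in wild-type cultures, with mutant cultures 2 and 4 inside the wild-type range, at -0.66 ± 0.27 (SE, adjusted p = 0.0997, limma).

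For the other genes that lead a role group, the polyribosomal values followed those of total RNA. Fbl had 46462, 47360.3, 33256 and 43166 normalized reads in mutant cultures and 67321, 70058, 60205 and 60669 in wild-type cultures. Bop1 had 26805, 28459, 19151 and 20402 normalized reads in mutant cultures, against 42130.4, 41518, 42125 and 37397 in wild-type cultures. Neither gene overlapped between the groups. Pes1 had 25164, 22779.7, 23207 and 21046 normalized reads in mutant cultures and 35899, 32486, 33030.5 and 28732 in wild-type cultures. Its change was -0.50 ± 0.11 (SE, adjusted p = 0.0106, limma). Across the 35 genes mutant culture 3 was the lowest mutant for 30 and mutant culture 2 the highest for 26, and wild-type culture 1 was the highest wild-type library for 26. Of all genes tested, 37.3% lay below every wild-type polyribosomal library in mutant culture 3 and 27.9% in mutant culture 2.

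Translational efficiency was taken as the polyribosomal change minus the total RNA change, tested as the interaction of genotype and fraction over all 16 libraries with the culture as a block. Of the 35 genes, 1 was lower and 1 higher, against 7.89% lower and 5.07% higher among the 14333 genes tested. The median log2 change was 0.08 over the 35 genes and 0.01 over all genes. Before adjustment 5 of the 35 had p under 0.05.

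**Figure D3:**
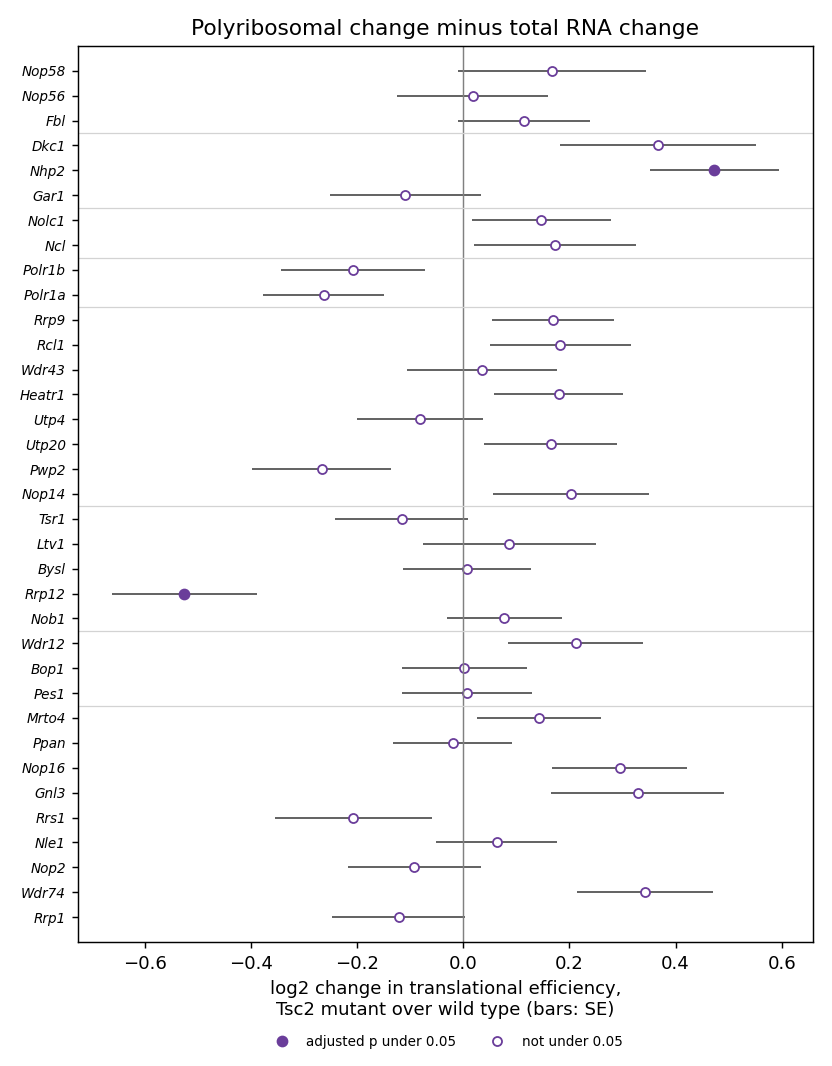
Log2 change in translational efficiency of each gene, Tsc2 mutant over wild type, with standard errors as bars and the genes grouped by role as in the plot of changes in both kinds of RNA. Filled points passed the adjusted threshold: Nhp2 at 0.47 and Rrp12 at -0.53.

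Nhp2 was the gene with higher efficiency. Its polyribosomal level was 17453, 18315, 11532 and 15751 normalized reads in mutant cultures, against 18880, 22748, 22044 and 21384 in wild-type cultures. The polyribosomal change was -0.45 ± 0.15 (SE, adjusted p = 0.0454, limma), less deep than its change in total RNA, and the difference between the fractions was 0.47 ± 0.12 (SE, adjusted p = 0.0193, limma). Dkc1, in the same box H/ACA particle, had the second highest value, 0.37 ± 0.18 (SE, adjusted p = 0.195, limma), and did not pass, and Gar1 lay at -0.11 ± 0.14 (SE). Of the remaining genes Wdr74, Gnl3 and Nop16 had the highest values, 0.34, 0.33 and 0.29, none past the threshold.

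Rrp12 was the gene with lower efficiency. In total RNA it had 2049, 2959.9, 1756 and 2306 normalized reads in mutant cultures, against 4534, 3503, 3119 and 3188 in wild-type cultures. The total RNA change was -0.67 ± 0.17 (SE, adjusted p = 0.012, limma), and the fractions differed by -0.53 ± 0.14 (SE, adjusted p = 0.0199, limma). Pwp2, a processome scaffold protein, had the next lowest value. It had 1933, 2396, 1623 and 2018 normalized reads in mutant total RNA and 3597, 2941, 2887 and 2576 in wild-type total RNA, against 3918, 4128, 3406 and 2957 in mutant polyribosomal RNA and 7368, 6184, 6826 and 5682 in wild-type polyribosomal RNA. The difference of -0.27 ± 0.13 (SE, adjusted p = 0.183, limma) did not pass. Both calls were lost when wild-type culture 3 was left out, Nhp2 to 0.46 (adjusted p = 0.0615, limma) and Rrp12 to -0.43 (adjusted p = 0.0833, limma), and that of Nhp2 also without mutant culture 1 (0.41, adjusted p = 0.0763) or wild-type culture 2 (0.49, adjusted p = 0.0524). Without wild-type culture 1, 4 of the 35 genes had higher efficiency (Nop58, Dkc1, Gnl3 and Nhp2), where 10.4% of all genes did. Without mutant culture 4, 2 did (Wdr74 and Nhp2), where 4.96% of all genes did.

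The coding length of the 35 genes, from the GENCODE transcript with the longest coding sequence, ran between 459 bases (Nhp2) and 8367 bases (Utp20), with a median of 1608 bases, against 1413 bases for 13554 tested genes. Across the 35 genes the Spearman correlation of efficiency change and coding length was -0.35, and across all genes with a length -0.42. These are descriptions across genes of the same libraries, and genes are not independent replicates.

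The place of each gene between the 2 fractions was described within a culture, as the log2 ratio of its polyribosomal to its total value minus that of the median gene tested. The tables were normalized apart, so the ratio has no absolute meaning. In mutant cultures 24 of the 35 genes lay above the median gene, with a median of 0.96, and in wild-type cultures 23 did, with a median of 1.02. The quartiles of all genes were -0.65 and 0.74 in mutant cultures and -0.70 and 0.76 in wild-type cultures. Bop1 (1.95 ± 0.17 in mutant and 1.93 ± 0.04 in wild-type cultures, SD, n = 4 each) and Fbl (1.96 ± 0.19 in mutant and 1.82 ± 0.12 in wild-type cultures) were the highest. Bop1 stood above 99.3% of tested genes in mutant and 99.6% in wild-type cultures. Bysl (1.65 ± 0.17 in mutant and 1.62 ± 0.04 in wild-type cultures) and Nle1 (1.69 ± 0.11 in mutant and 1.603 ± 0.02 in wild-type cultures) followed. Utp20 (-0.96 ± 0.13 in mutant and -1.15 ± 0.19 in wild-type cultures) and Heatr1 (-0.62 ± 0.12 in mutant and -0.83 ± 0.16 in wild-type cultures) were the lowest in wild-type cultures.

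**Figure D4:**
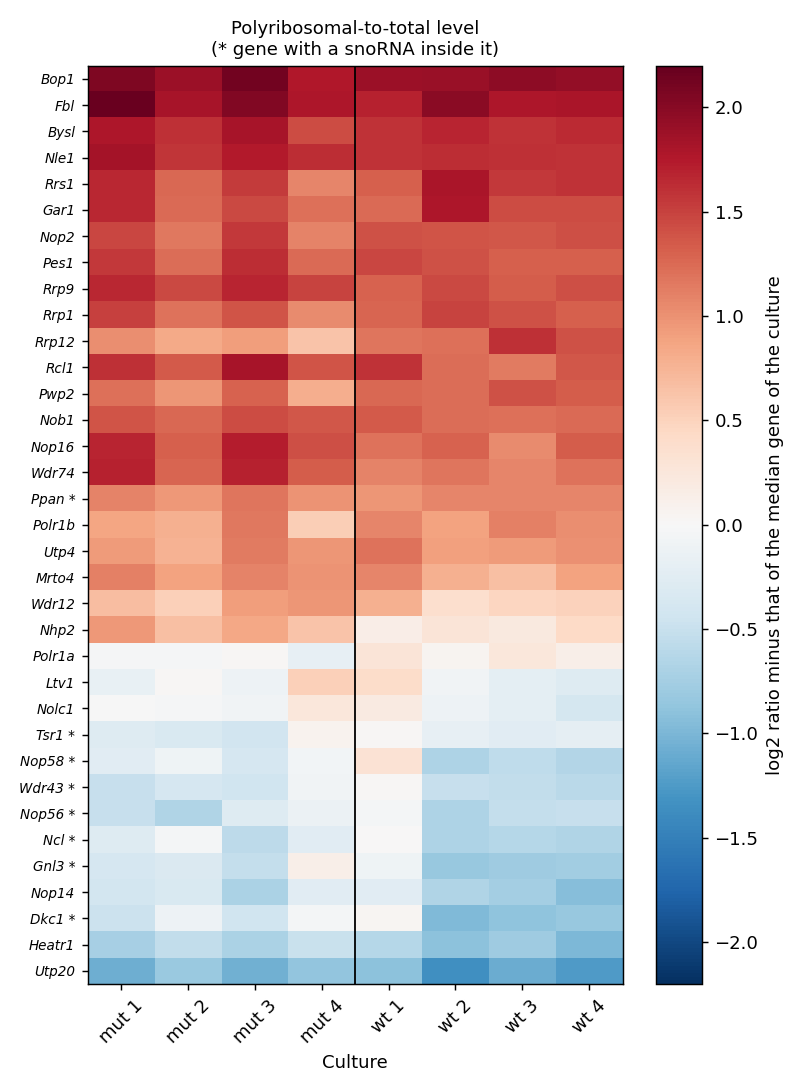
Polyribosomal-to-total level of each of the 35 genes (rows) in each culture (columns, mutants left), as the log2 ratio minus that of the median gene of the culture; red is above and blue below the median gene, and an asterisk marks genes that hold a snoRNA gene. Wild-type culture 1 had the highest wild-type ratio for all 12 genes below the median gene in wild-type cultures, which was not counted over all genes tested.

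In wild-type cultures 12 lay below the median gene, namely Nop56, Nop58, Dkc1, Ncl, Nolc1, Utp20, Heatr1, Nop14, Wdr43, Tsr1, Ltv1 and Gnl3, and 10 of them also did in mutant cultures. Polr1a lay below it in mutant cultures (-0.06 ± 0.09) and above it in wild-type cultures (0.18 ± 0.10). Of these 12, 7 have a snoRNA gene within their bounds on the same strand, whereas 1 of the other 23 (Ppan) does. In all, 8 of the 35 genes (22.9%) hold a snoRNA, against 1.59% of 14064 protein-coding genes tested. Snord110 and Snord57 lie in Nop56, Snord11 and Snord70 in Nop58, Snord82 and Snora75 in Ncl, Snord53 and Snord92 in Wdr43, Snord19 and Snord69 in Gnl3, and Snord91a in Tsr1. This division was seen in the data and has no test.

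Wild-type culture 1 stood apart in these 12 genes. It had the highest ratio in 12 of the 12, by a median of 0.56 over the mean of the other wild-type cultures, and in 7 of the other 23. This was not counted over all genes, so it cannot be called particular to the 12. For Dkc1 the ratio was -0.48, -0.12, -0.43 and -0.04 in mutant cultures 1 to 4, against 0.05, -0.98, -0.88 and -0.83 in wild-type cultures 1 to 4. Of the 12 genes 6 were lower in mutant polyribosomal RNA, against 21 of the other 23, but the ratio and the change share their wild-type polyribosomal values. The split into 12 and 23 rested on all wild-type cultures, so leaving out wild-type culture 1 is no separate check of it. Without wild-type culture 1, 2 of the 12 (Nop56 and Tsr1) and 19 of the other 23 were lower. The count over all 35 was then 21, against 7.23% of all genes, Nop58, Nhp2, Nolc1, Wdr43, Ltv1 and Wdr74 being lost. Leaving out any other culture gave between 21 and 30, against 6.18% to 14.6% of all genes. Coding length and the ratio had a Spearman correlation of -0.54 in mutant and -0.39 in wild-type cultures across the 35 genes, against -0.28 in mutant and -0.11 in wild-type cultures across 13554 genes.

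Other genes of the same pathway, taken from lists, moved in the same direction as the 35. In mutant total RNA 42 of 46 other small subunit factors, 51 of 58 other large subunit factors, 12 of 12 snoRNP assembly genes, 13 of 13 RNA exosome genes and 16 of 19 RNA polymerase I transcription genes were lower, and 0 of each list was higher. Their median log2 changes were -0.55, -0.65, -0.68, -0.57 and -0.52. In polyribosomal RNA 24, 29, 5, 7 and 5 genes of these lists were lower and 0 were higher. Examples in total RNA were Emg1, a small subunit methyltransferase (-0.91 ± 0.14, SE), Npm3, a nucleoplasmin family protein (-1.11 ± 0.16), Rpf2, which places the 5S particle (-1.13 ± 0.16), Ruvbl2, an ATPase of the snoRNP assembly machinery (-0.91 ± 0.15), and the exosome subunit gene Exosc8 (-0.91 ± 0.16). Of 78 tested cytosolic ribosomal protein genes, whose products are assembled with the help of these factors, 75 were lower in total RNA and 50 in polyribosomal RNA, with median log2 changes of -0.57 and -0.46.

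The MYC network did not move as a block. Of 12 genes tested in total RNA 2 were lower and 4 higher, with a median log2 change of 0.34. Mxd1, a MAX partner that opposes MYC, had 1236, 662, 1278 and 921 normalized reads in mutant cultures, against 513, 524, 455 and 455 in wild-type cultures, with no overlap and a change of 1.03 ± 0.19 (SE, adjusted p = 0.00458, limma). Mxd4 (0.78 ± 0.18), Mxi1 (0.67 ± 0.20) and Mlxip (0.43 ± 0.12) were higher as well, and Mlx (-0.42 ± 0.10) and Mxd3 (-0.40 ± 0.14) lower. Myc itself had 8548, 7003, 6564 and 6206 normalized reads in mutant cultures and 8453, 7170, 8228 and 7401 in wild-type cultures, a change of -0.15 ± 0.11 (SE, adjusted p = 0.288, limma) that did not pass. In polyribosomal RNA 2 of the 12 were higher, Mxd1 at 0.89 ± 0.21 and Mxi1 at 0.74 ± 0.22, and 0 lower, with Myc at -0.47 ± 0.17 (adjusted p = 0.0591, limma).

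**Figure D5:**
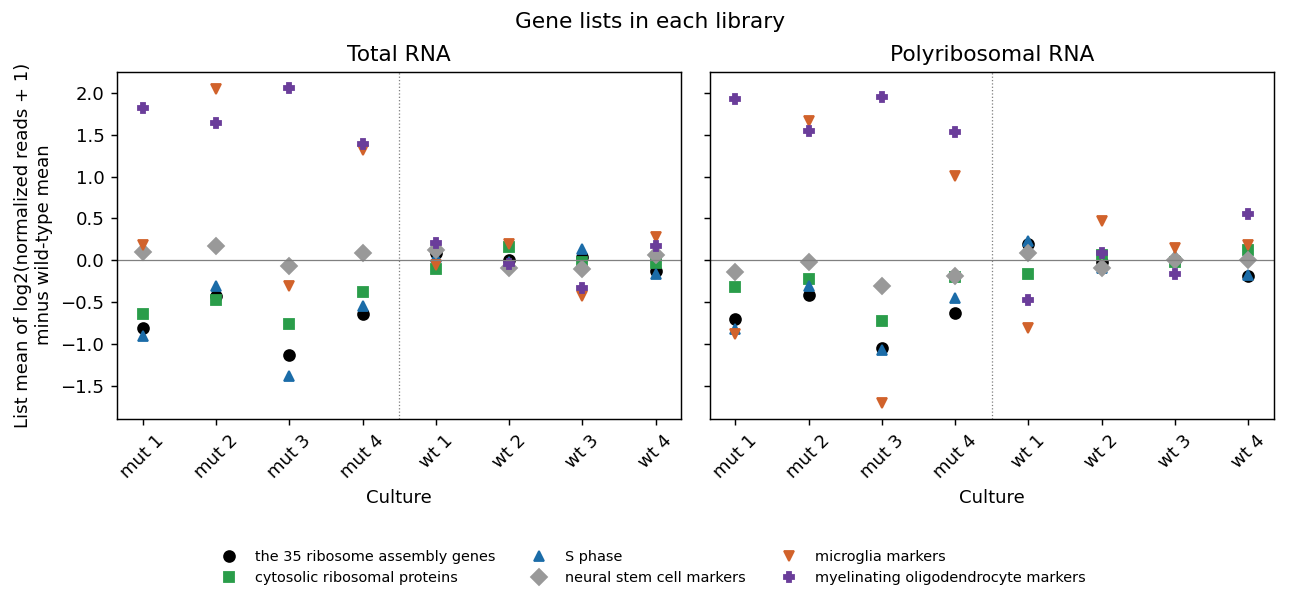
Mean log2(normalized reads + 1) of gene lists in each library, minus the mean of the 4 wild-type libraries, for the 35 genes and for ribosomal protein, S phase and cell type marker lists. In total RNA the 35 genes and the S phase list had the same order among mutant cultures, lowest in culture 3 (-1.13 and -1.39) and highest in culture 2 (-0.43 and -0.31).

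Among the S phase and cell type marker lists, the S phase list fell with these genes. All 25 S phase genes were lower in mutant total RNA and 17 in polyribosomal RNA, and their mean relative to wild type was -0.91, -0.31, -1.39 and -0.55 in mutant cultures 1 to 4 and between -0.16 and 0.14 in wild-type cultures. The neural stem cell markers, such as Nes, Vim and Sox2, summed to between 901660 and 1031300 normalized reads in mutant and between 880990 and 1023100 in wild-type total RNA, with none at 0. Such sums cannot tell how much of the RNA came from stem cells. All 7 tested markers of myelinating oligodendrocytes were higher in mutant total RNA, their list of 8 summing to between 18462 and 25337 in mutant and between 8945 and 10639 in wild-type libraries, with Opalin at 0 in some of them. Of the 10 stem cell markers 2 were higher and 1 lower. Of 7 astrocyte markers 5 were higher, with sums of 116510 to 165890 in mutant and 94002 to 106950 in wild-type libraries. Microglia markers summed to between 3086 and 21007 in mutant and between 2770 and 4671 in wild-type libraries, none of the 12 being at 0, and their mean was highest in mutant culture 2 (2.05 above the wild-type mean) and lowest among mutants in culture 3 (-0.31). Choroid plexus markers summed to between 173 and 2578 in mutant and between 86.4 and 134 in wild-type total RNA with no overlap, and 2 of 4 tested genes were higher in total RNA and 4 of 4 in polyribosomal RNA, Ttr at 5.01 ± 1.31 (SE) in total RNA. Endothelial markers summed to between 2498 and 4042 in mutant and between 1151 and 2475 in wild-type libraries, also with no overlap, and 2 of 4 were higher. Neuroblast and neuron markers summed to between 1010.2 and 2104 in mutant and between 990.1 and 1091 in wild-type libraries, with 1 of 6 higher. Without mutant cultures 2 and 4, which had the most microglia marker RNA, 34 of the 35 genes were lower in total RNA and 31 in polyribosomal RNA, against 23.8% and 19.6% of all genes. Without mutant cultures 1 and 3, which had the least S phase RNA, 28 were lower in total RNA and 17 in polyribosomal RNA, against 7.83% and 4.46% of all genes. Mutant cultures 1 and 3 also had the lowest mean of the 35 genes in total RNA (-0.81 and -1.13), and cultures 2 and 4 the highest among mutants (-0.43 and -0.64). Leaving out these cultures therefore also selects on the level of the 35 genes, so the counts cannot separate it from S phase or microglia RNA. The part of cell cycle and of other cell types in the lower levels of the 35 genes was not tested.

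The level of 4 Y-linked genes also differed between the cultures. Their mean log2 value in total RNA was 10.15, 3.71, 2.22 and 1.002 in mutant cultures 1 to 4, against 9.92, 10.19, 10.42 and 5.94 in wild-type cultures 1 to 4, so that this level and genotype are partly confounded. With that level as a covariate 11 of the 35 genes were lower in mutant total RNA, against 3.57% of all genes (Gar1, Nhp2, Ncl, Rrp9, Rcl1, Tsr1, Nop16, Wdr74, Nle1, Mrto4 and Ppan) and 0 in polyribosomal RNA, against 0.0902% of all genes. By limma's unadjusted p under 0.05, 33 of the 35 passed in total RNA and 22 in polyribosomal RNA. The median log2 changes were then -0.76 and -0.59, and all 35 changes stayed below 0 in both. Mutant culture 1, with a Y-linked level like that of wild-type cultures 1 to 3, lay below every wild-type library for 35 of 35 genes in total RNA and 33 of 35 in polyribosomal RNA, against 35.1% and 35.4% of all genes tested. It is 1 culture, and the part of Y-linked level or sex in the lower levels cannot be told apart from that of genotype here.

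The scaling also bears on these counts. After division by the library totals the median log2 change of all genes was 0.11 in total RNA and 0.13 in polyribosomal RNA, in place of 0.01 in each, and the share of lower genes among all calls became 37.1% in place of 51.2% in total RNA and 26.4% in place of 50.3% in polyribosomal RNA. The median of the 35 genes relative to that of all genes was -0.80 in total RNA and -0.73 in polyribosomal RNA under both scalings. By library totals 34 of the 35 genes were lower in total RNA, as before, and 22 in polyribosomal RNA in place of 27, with Nop58, Nhp2, Nolc1, Ltv1 and Wdr74 lost. Of all genes 15.1% were then lower in total RNA and 6.43% in polyribosomal RNA, in place of 20.7% and 11.9%. Tsc2 itself, whose value sums reads over the whole gene and so does not check the deletion, changed by -0.10 ± 0.10 (SE, adjusted p = 0.422, limma) in total RNA and by -0.49 ± 0.15 (SE, adjusted p = 0.0389, limma) in polyribosomal RNA.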

How the data were processed

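Total and polyribosomal RNA were sequenced from 4 Tsc2 mutant and 4 wild-type NSC cultures after poly(A) selection, in libraries that keep no strand. The authors aligned reads to mm10 with STAR and normalized them with DESeq2, and deposited 1 table per kind of RNA, so that values can be compared within a table only. Which counter and annotation they used is not given in the sources used here. The deposited values are a signal on a read scale that did not resolve into whole reads: between 62.9% and 91.5% of low values per library lay within 0.1 of a multiple of the best common step, which gives a rough depth of 24.7 M to 139 M reads in total RNA and 52.2 M to 266 M in polyribosomal RNA. No count test was therefore run, and 26 rows whose symbols had become dates were left out of 24972.

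Values were tested as log2(value + 1) with limma 3.58.1 (R 4.3.3), with a mean-variance trend and robust moderation, on genes with a mean of at least 10 across the libraries of the fit. Fold changes are on that scale, and p-values were adjusted by Benjamini-Hochberg over all genes tested. Translational efficiency used all 16 libraries with the culture as a block, since each culture gave both kinds of RNA. All fits were tested on simulated data. Replicate numbers of mutant and wild-type cultures did not pair them (correlations of deviations between -0.083 and 0.101 in total RNA and between -0.13 and 0.057 in polyribosomal RNA). Each culture has its own animal number, and the p-values measure the spread between these cultures.

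Values per library were given for the genes with the 2 smallest and 2 largest changes in each fit, for each gene that missed the threshold in total RNA and for the most abundant gene of each role. From other lists up to 4 genes with the smallest p were eligible, and further genes were added after their values were seen. The members and lists were chosen with earlier results of these data known. Promoters came from RefSeq (GRCm38), and gene bounds, coding lengths and snoRNA genes from GENCODE M21. Alternatives covered the pseudocount, the filter, the scaling, the moderation, each culture left out, the block and a covariate for Y-linked genes.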

Additional observations from a re-analysis of the deposited data

Results flagged for a closer look

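Of 140 groups of 4 libraries, formed by the 35 genes, the genotypes and the kinds of RNA, 3 had a library far from the other 3, where chance gives about 1 in 20. Fbl had 24310 normalized reads (24309.9) in total RNA of wild-type culture 1, above the other wild-type cultures. Rrs1 had 15654.5 in the same library, also above the others. Bop1 had 37397.1 normalized reads in polyribosomal RNA of wild-type culture 4, below the other wild-type cultures.

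The effect of genotype differed between polyribosomal and total RNA, by the interaction test, for Nhp2 (0.47 on the log2 scale, mutant over wild type) and for Rrp12 (-0.53).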

How the results depend on the processing

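All 35 changes were below 0 in total RNA under every alternative, and in polyribosomal RNA under all but 1, without mutant cultures 1 and 3, where 34 were. The count of 34 lower genes in total RNA held when each culture was left out in turn, with the replicate block, and under every pseudocount, filter, scaling and moderation tried. Over all genes the share of lower genes in those fits ran between 12.5% and 24.6%, against 20.7% in the main fit. The count was 11 once the Y-linked level entered as covariate (535 lower and 528 higher among all genes). It was 28 without mutant cultures 1 and 3, against 7.83% of all genes. In polyribosomal RNA 27 genes were lower, against 11.9% of all genes. With the replicate block 25 were (Nhp2 and Wdr74 lost), against 8.22% of all genes. The count was 22 under library totals, quantile normalization or limma without trend and robust moderation, against 6.43%, 10.1% and 9.21%. With no filter it was 24, against 6.92%, and with 1 culture left out between 21 and 30, against 6.18% to 14.6%. Without mutant cultures 1 and 3 it was 17, against 4.46%. With the Y-linked covariate it was 0, where 13 genes of all were lower and 17 higher. In that fit 22 of the 35 had an unadjusted p under 0.05 by limma. Leaving out mutant cultures 1 and 3, or 2 and 4, was chosen after seeing the data. For translational efficiency the 1 lower and 1 higher gene became 0 and 0 without trend and robust moderation (4 of the 35 with an unadjusted p under 0.05), with no replicate block (2), with the Y-linked covariate (3) and without mutant cultures 1 and 3 (10), by limma. In each of these 4 fits 0 of all genes tested passed in either direction. The 1 lower and 1 higher gene became 0 and 3 without mutant cultures 2 and 4, against 5.28% and 7.01% of all genes. They became 1 and 2 under library totals (6.6% and 6.42% of all genes) or quantile normalization (8.78% and 6.98%), with Wdr74 gained. With 1 culture left out between 0 and 1 were lower, against 3.06% to 12.4% of all genes. Between 0 and 4 were then higher, against 1.31% to 10.4%. The cause was not tested. With CACGTG counted before the start alone, 1 promoter held it in place of 8. All 35 genes passed the filter on low values in each fit, and the number of cultures, 4 per genotype, limits the precision.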

Other observations

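Several genes of the other ribosome assembly lists passed the main test of translational efficiency. Over all genes 0 passed without trend and robust moderation, with no replicate block, with the Y-linked covariate or without mutant cultures 1 and 3. Efficiency change and coding length had a Spearman correlation of -0.42 over all genes, and the part of length in the calls below was not tested. Nop10, the smallest protein of the box H/ACA core and a partner of Nhp2, had a log2 change of -0.73 ± 0.16 (SE) in total RNA and 0.04 ± 0.13 in polyribosomal RNA, and an efficiency change of 0.78 ± 0.13 (adjusted p = 0.00613, limma). Snu13, which binds box C/D snoRNAs, had an efficiency change of 0.52 ± 0.14 (adjusted p = 0.0243, limma). Of 19 RNA polymerase I transcription genes, some of them named as RNA polymerase II subunits (Polr2), 5 had higher efficiency and 0 lower. These were the subunit genes Polr2k (0.91 ± 0.24), Polr2l (0.82 ± 0.20), Polr2f (0.76 ± 0.16), Polr1d (0.61 ± 0.14) and Znrd1 (0.61 ± 0.14). Other subunit genes that did not pass ran between -0.04 (Polr1c) and 0.34 (Polr2h and Polr2e) in that list, and Polr1a and Polr1b, which are among the 35, had -0.26 ± 0.11 and -0.21 ± 0.14. Over the 5 other assembly lists together 11 of 148 genes (7.43%) had higher efficiency, against 5.07% of all genes tested, and 4 (2.7%) lower, against 7.89%.

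Emg1 (0.57 ± 0.14), Npm3 (0.53 ± 0.14), Nol12 (0.50 ± 0.13) and Znhit3 (0.46 ± 0.14) also had higher efficiency. Lower efficiency was called for Pelp1 (-0.60 ± 0.15), Nol6 (-0.55 ± 0.14), Tcof1, the treacle gene (-0.47 ± 0.14), and Dhx37 (-0.42 ± 0.13), all of them ribosome assembly genes outside the 35. In the MYC network Mlxip (-0.90 ± 0.16) and Mnt (-0.82 ± 0.16) had lower and Mxd3 (0.49 ± 0.13) higher efficiency. These genes were picked after their values were seen.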
